A study of Zea mays with 6 samples.

Results

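Among the genes that were well expressed in maize seedling shoots kept in DMSO, a small group was listed at no more than 0.5 times that level after a short auxin treatment. The group was chosen by its measured values: an FPKM (fragments per kilobase of transcript, scaled to the number of mapped fragments) of at least 10 in DMSO, and an IAA value of at most 0.5 times the DMSO value, with microRNA precursor rows left out. It held 106 of the 11674 genes with at least 10 FPKM in DMSO, or 0.908%, in a table of 39283 genes. Since the difference from DMSO itself chose the members, it is given below as a description, with no test.

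The treated group was the aerial parts of 7-day-old B73 seedlings, grown in a greenhouse, cut, and incubated for 30 min in indole-3-acetic acid (IAA, the main natural auxin) with 1% DMSO. The control group was treated alike in 1% DMSO without IAA. The labels give the IAA concentration as 100 mM, whereas the methods text gives the same figure in micromolar. Each treatment had 3 replicates of 3 plants, but the table holds 1 pooled FPKM value per gene and treatment. From these values the spread between replicates and the depth of the libraries cannot be read, so the values below carry no error and the differences no replicate check. The authors' own test statistics over the replicates were not used. The IAA column summed to 785743 FPKM, 95.6% of the 821595 FPKM of the DMSO column, and the median log2 ratio of IAA over DMSO was -0.06 over the 11674 genes. Leaf genes were high in both treatments: 2 Rubisco small subunit genes lay between 1567 and 1840 FPKM after IAA and between 1559 and 1829 in DMSO. Other leaf genes were higher after IAA. Phosphoenolpyruvate carboxylase pep1 had 1258.5 FPKM after IAA and 805 in DMSO, pyruvate phosphate dikinase 2726 and 1741, and NADP-malic enzyme 721 and 570. The 8 chlorophyll a-b binding genes lay between 131 and 3929 FPKM after IAA and between 146 and 3809 in DMSO. The 25 zein genes, which encode seed storage proteins, did not exceed 0.441 FPKM after IAA and 0.220 in DMSO. Pollen and root cap genes were also looked for by name, and no gene matched.

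Auxin response factors (ARFs) are the DNA-binding proteins of the auxin pathway. Without the hormone many of them are held in check by Aux/IAA proteins, and the hormone lifts this block through TIR1/AFB receptors that mark the Aux/IAA proteins for destruction. The rapid response is best known for genes that are induced, such as the Aux/IAA, SAUR and GH3 families. For an mRNA to fall from its starting level within a short treatment, existing copies must also be degraded. The samples used here include none from before treatment. A fall from the starting level and a rise in DMSO that was smaller with IAA therefore cannot be told apart. Below, the level that a gene kept is its IAA value as a percentage of its DMSO value. In whole shoots, a lower level per cell and fewer cells with the transcript cannot be told apart.

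The members spanned a wide range of abundance. Their IAA values ran up to 549 FPKM with a median of 10.1, and their DMSO values ran from 10.02 to 1101 FPKM with a median of 25.8. The median DMSO value of all 11674 genes was 25.3, close to that of the members. The share at or under 0.5 times DMSO was 0.951% of 4523 genes at 10 to 20 FPKM, 0.795% of 4026 at 20 to 50, 0.872% of 1606 at 50 to 100, 1.39% of 791 at 100 to 200, 0.783% of 511 at 200 to 500 and 0.922% of 217 at 500 FPKM and over. The share thus showed no steady trend with abundance. The members made up 0.365% of all FPKM after IAA and 0.864% in DMSO, and their sum was 2865 FPKM after IAA against 7096 in DMSO. The difference of 4231 FPKM compares with a difference of 35853 FPKM between the column totals.

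**Figure D1:**
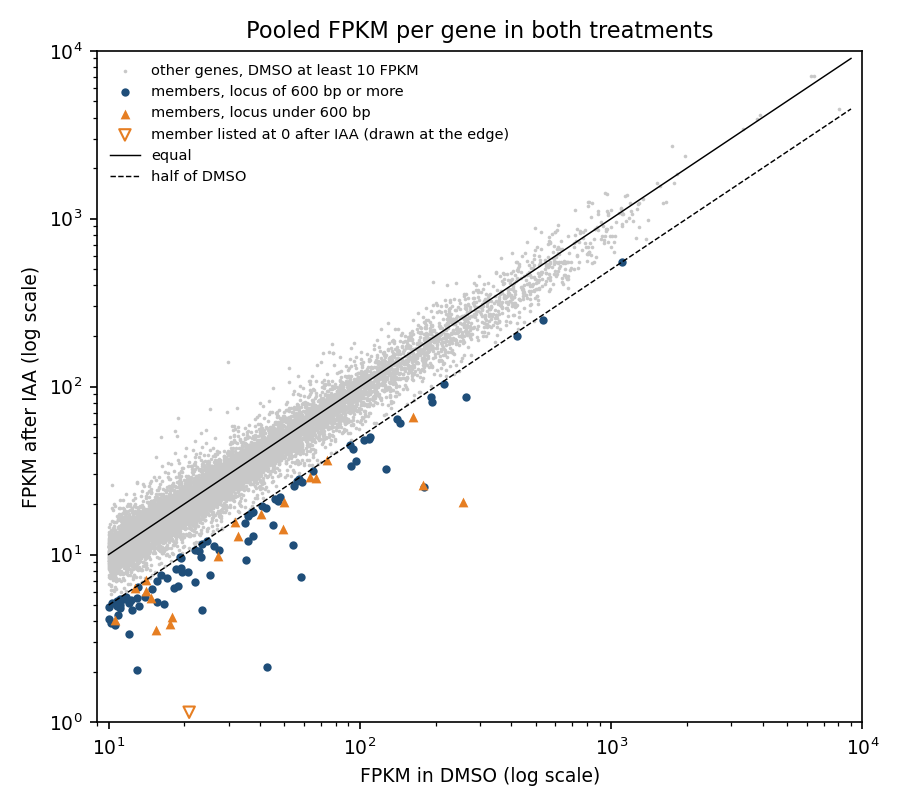
FPKM after IAA (vertical) against FPKM in DMSO (horizontal) for the 11674 genes with at least 10 FPKM in DMSO, both on log axes. Each point is the pooled value of a gene. The 106 members lie on or under the dashed line at 0.5 times DMSO, along the whole range from 10.02 to 1101 FPKM, and triangles mark the 21 members with a locus under 600 bp, of which the open one, at 0 after IAA, is drawn at the edge.

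Most members lay close to the limit that defined them. The median member kept 43.0% of its DMSO level, with quartiles at 35.9% and 47.2%, and 43 members kept more than 45%. Only 12 members kept 25% or less. A rule of at least 2-fold higher, set on the same 11674 genes, found 30 (0.257%). Genes under 10 FPKM in DMSO could not count there, even where they were high after IAA. A mirror rule that required 10 FPKM after IAA and at most 0.5 times that value in DMSO found 73 of 11546 genes (0.632%).

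The highest member was GRMZM2G131421, on chromosome 9 from 20705211 to 20706472 (B73v3), with 549 FPKM after IAA and 1101 in DMSO. At 49.8% of DMSO it only just met the rule. AC210013.4_FG016, on chromosome 5 from 3422925 to 3423865, had 251 FPKM after IAA and 534 in DMSO. The third was GRMZM2G130079, on chromosome 9 from 17731053 to 17732110, which the table names H3C4, the name of a gene for the core histone H3. It had 201 FPKM after IAA and 421 in DMSO.

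Below these, GRMZM2G073934, on chromosome 5 from 21592571 to 21599690, had 86.3 FPKM after IAA and 264 in DMSO, or 32.7% of DMSO, a lower ratio than in the 3 members above it. GRMZM2G044137 on chromosome 6 had 104 FPKM after IAA and 216 in DMSO. GRMZM2G040689 on chromosome 9 had 80.7 FPKM after IAA and 194 in DMSO. These are protein-coding genes of the RefSeq annotation without a functional symbol there. GRMZM2G026780 on chromosome 1 had 86.7 FPKM after IAA and 192 in DMSO, and GRMZM5G870342 on chromosome 2 had 60.6 and 144 FPKM in the same order. Together the 12 highest members held 54.2% of the members' DMSO sum.

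The lowest ratios were found mostly in genes without a RefSeq match by identifier. AC194298.3_FG005, on chromosome 3 from 204651106 to 204656000, was listed at 2.13 FPKM after IAA and 42.8 in DMSO, or 20.1-fold lower, the lowest ratio of a member with a value above 0. GRMZM2G169360, a model of 201 bp on chromosome 9 from 151106512 to 151106712, had 20.7 FPKM after IAA and 258 in DMSO, or 12.5-fold lower. AC204712.3_FG002, on chromosome 3 from 200055710 to 200056338, had 7.35 FPKM after IAA and 58.2 in DMSO. None of these 3 was matched to a RefSeq gene. For AC194298.3_FG005 and AC204712.3_FG002 this says little about the gene. None of the 325 genes with such an FG identifier and at least 10 FPKM in DMSO was matched.

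AC190933.3_FG004 on chromosome 3 had 25.2 FPKM after IAA and 180 in DMSO, and AC195331.3_FG008, of 186 bp on the same chromosome, had 26.1 and 178 FPKM in the same order. GRMZM2G515200, a model of 88 bp on chromosome 2 from 212396996 to 212397083, was listed at 0 after IAA and at 20.9 FPKM in DMSO, so no fold is given for it. GRMZM2G030688 on chromosome 8 had 2.05 FPKM after IAA and 13.0 in DMSO. GRMZM5G865115 on chromosome 3 had 3.85 and 17.5 FPKM in the same order, and AC197355.3_FG001 on chromosome 5 had 3.54 and 15.4 FPKM. Of the 12 members with the lowest ratios, 3 matched a RefSeq gene: GRMZM2G054065 on chromosome 4 with 4.68 FPKM after IAA and 23.6 in DMSO, GRMZM2G450866 on chromosome 7 with 11.4 and 53.9 FPKM, and GRMZM2G135111 on chromosome 2 with 4.27 and 17.9 FPKM. GRMZM2G450866 matched a protein-coding RefSeq gene and a transcribed pseudogene, so its reads may be divided between copies.

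**Figure D2:**
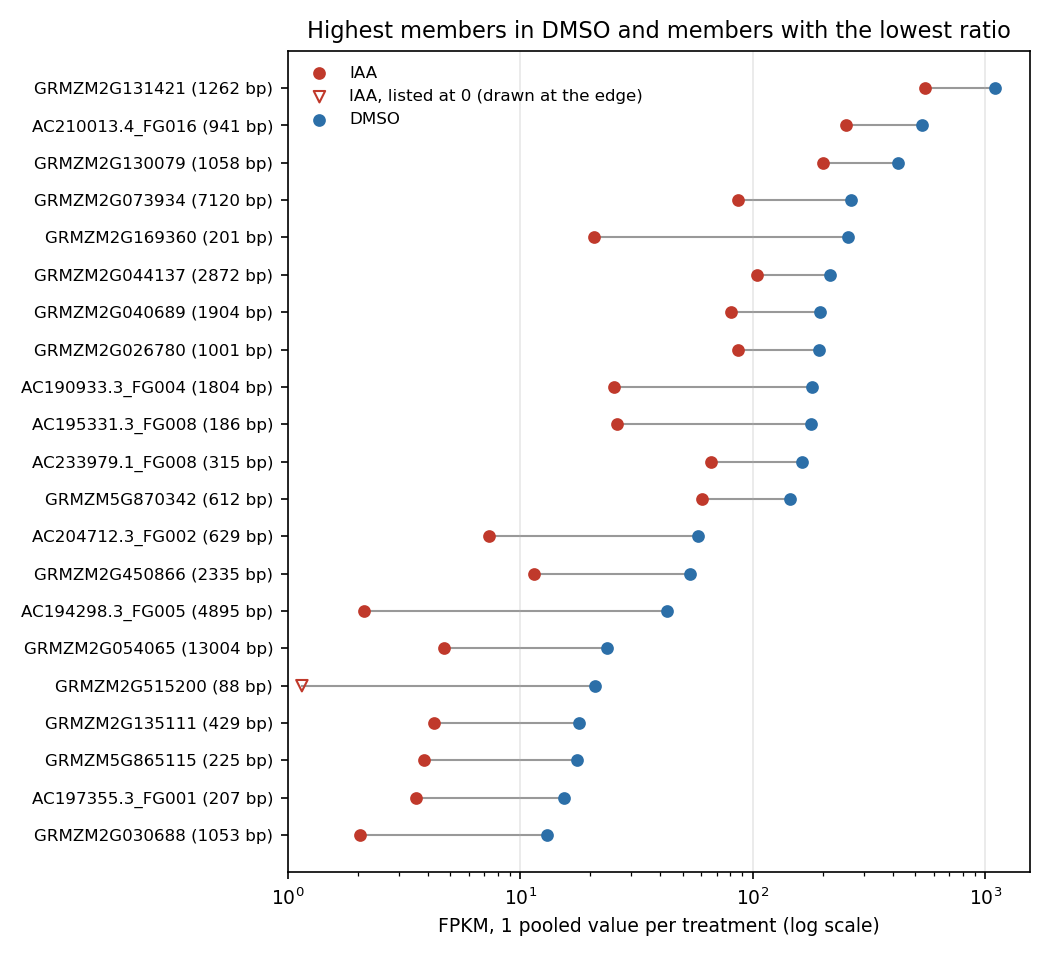
FPKM (horizontal, log axis) after IAA and in DMSO for the 12 members with the highest DMSO value and the 12 with the lowest ratio, 21 genes in all, with the locus length in brackets. Each line joins the pooled values of a gene. Among genes with a value above 0 after IAA, the longest lines belong to AC194298.3_FG005 and GRMZM2G169360; the open triangle marks GRMZM2G515200, which is listed at 0 and drawn at the edge, so its line has no measured length.

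The members had short loci. Locus length, which counts introns, had a median of 1066 bp over the members and 3968 bp over all 11674 genes, and loci under 2000 bp made up 80.2% of the members (85 of 106) and 20.1% of all (2349). The share at or under 0.5 times DMSO was 9.86% of 213 genes under 600 bp, 4.89% of 511 at 600 bp to under 1000 bp, 2.40% of 1625 at 1000 bp to under 2000 bp, 0.238% of 5035 at 2000 bp to under 5000 bp and 0.210% of 4290 at 5000 bp and over, beside 0.908% overall. The order held at 10 to 50 FPKM in DMSO, with 11.1% of 135 genes under 600 bp and 0.115% of 3492 genes at 5000 bp and over. At 50 FPKM and over the shares were 7.69% of 78 genes under 600 bp and 0.627% of 798 at 5000 bp and over, and the lowest share, 0.200% of 1500, was at 2000 bp to under 5000 bp.

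Short loci also varied more in both directions. Genes at 2-fold or more above DMSO made up 1.88% of those under 600 bp and 0.0699% of those at 5000 bp and over. The interquartile range of the log2 ratio was 0.78 under 600 bp, 0.56 at 600 bp to under 1000 bp, 0.49 at 1000 bp to under 2000 bp, 0.33 at 2000 bp to under 5000 bp and 0.26 at 5000 bp and over. The median log2 ratio was -0.19 under 600 bp and -0.04 at 5000 bp and over. At equal FPKM a short transcript rests on fewer fragments, and the part of this in the lower IAA values of the short members was not tested. The 73 genes of the mirror rule were short as well, with 67.1% under 2000 bp and 13.7% under 600 bp, against 80.2% and 19.8% of the members.

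**Figure D3:**
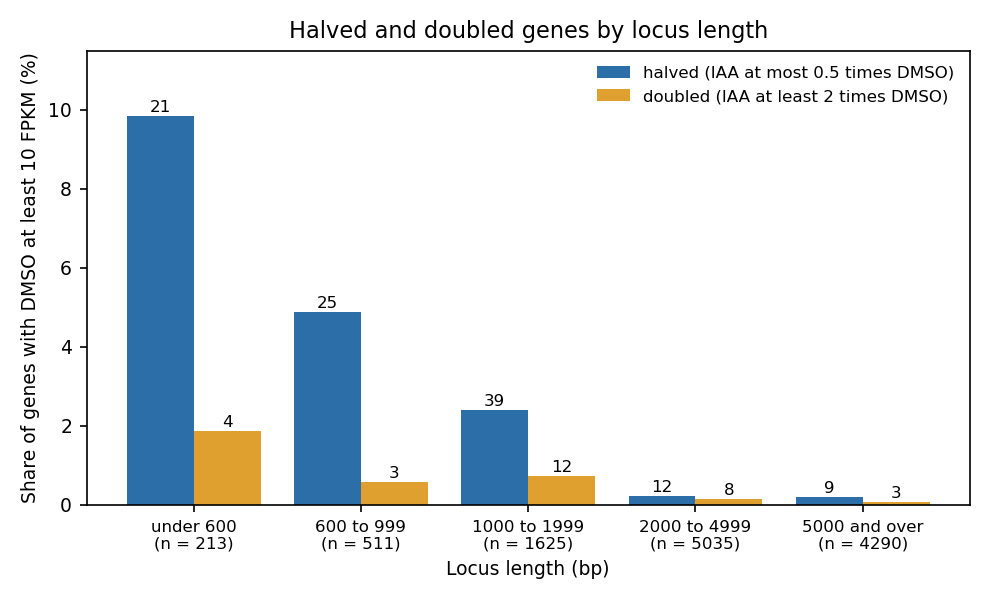
Share of genes with at least 10 FPKM in DMSO (vertical, %) that were at or under 0.5 times DMSO or at 2 times DMSO or more after IAA, in 5 classes of locus length (horizontal), with the number of genes past that limit above each bar. Both shares were highest under 600 bp, at 9.86% and 1.88%. They rest on a minimum in DMSO alone, so the heights of the paired bars are not directly comparable.

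The 21 members with a locus under 600 bp had lengths of 88 to 513 bp, with a median of 290 bp, and 11 of them were under 300 bp. Their median was 13.0 FPKM after IAA and 31.8 in DMSO, and the median member of this class kept 39.6% of its DMSO level, against 43.7% in the 85 longer members. A level of 25% or less was listed for 6 of the 21 and for 6 of the 85. After GRMZM2G169360 and AC195331.3_FG008, the most abundant were AC233979.1_FG008 on chromosome 10 (315 bp, 66.4 FPKM after IAA and 163 in DMSO) and GRMZM2G475185 on chromosome 2 (276 bp, 36.5 and 73.8 FPKM). GRMZM2G475185 lay just inside the limit, at 49.4% of DMSO. The next were GRMZM2G090929 with 28.7 FPKM after IAA and 66.9 in DMSO, GRMZM5G847599 with 28.8 and 63.1, AC233851.1_FG008 with 20.6 and 49.8, and AC187782.4_FG009 with 14.2 and 49.6. GRMZM2G590771 and GRMZM5G803276 followed, with 17.4 and 13.0 FPKM after IAA against 40.2 and 32.7 in DMSO. Of the 21, 4 matched a RefSeq gene, beside 42 of all 213 genes under 600 bp with at least 10 FPKM in DMSO. The 4 were GRMZM2G090929, GRMZM2G531230, GRMZM2G135111 and GRMZM2G436020. Each of these 4 shared its RefSeq gene with another row of the table.

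Many members had a clone-based identifier or no RefSeq match by identifier. Clone models, whose identifiers are built from the accession of a sequenced clone and an FG number, made up 24 of the 106 members (22.6%) and 325 of the 11674 genes (2.78%). Of the 325 clone models, 7.38% were at or under 0.5 times DMSO, against 0.723% of the 11349 other genes. No clone model was at 2-fold or more above DMSO, which beside 0.264% of the other genes is no result about clone models. Clone models under 1000 bp supplied 18 of the 24. Under 600 bp, 7 of 46 clone models (15.2%) were members, against 14 of 167 other models (8.38%). At 600 bp to under 1000 bp, 11 of 38 clone models (28.9%) were members, against 14 of 473 other models (2.96%). At 1000 bp to under 2000 bp the figures were 1 of 66 (1.52%) and 38 of 1559 (2.44%), at 2000 bp to under 5000 bp they were 4 of 117 (3.42%) and 8 of 4918 (0.163%), and at 5000 bp and over they were 1 of 58 (1.72%) and 8 of 4232 (0.189%). Several of these counts are small, and the difference between classes was not tested. The clone-model members included AC234161.1_FG010 on chromosome 9 with 48.6 FPKM after IAA and 109 in DMSO, and AC206951.3_FG017 on chromosome 1 with 33.5 and 91.8 FPKM.

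By identifier, 51 of the 106 members matched a RefSeq gene, or 48.1%, against 81.2% of all 11674 genes. The share at or under 0.5 times DMSO was 0.538% of the 9475 matched genes and 2.50% of the 2199 that were not matched. None of the 325 clone models matched by identifier. Without them, 31 of 1874 unmatched genes were members (1.65%). Within the unmatched genes the share fell with length as well, with 9.94% of 171 genes under 600 bp and 0.377% of 796 at 5000 bp and over. Matched genes under 600 bp had a similar share, 9.52% of 42. At 600 bp to under 1000 bp it was 2.48% of 323 matched and 9.04% of 188 unmatched genes. At 1000 bp to under 2000 bp, 28 of 1275 matched and 11 of 350 unmatched genes were members. At 2000 bp to under 5000 bp the shares were 0.115% of 4341 and 1.01% of 694 in the same order. Matched genes of 5000 bp and over had 0.172% of 3494. The difference by match thus varied with length and was not tested.

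For 13 members, the RefSeq gene included a further row of the table, so that 2 or more B73v3 models correspond to 1 gene of the newer assembly. These were 2.33% of the 559 genes whose RefSeq gene has another row, against 0.426% of the 8916 genes with a RefSeq gene of their own. Of the 12 other rows with at least 1 FPKM in DMSO, none was at or under 50% of DMSO. At 0.908% of the 11674 genes with at least 10 FPKM in DMSO, that is no result about these rows. Their median was 99.5%, the lowest 59.9% and the highest 115%, and 6 of the 12 were above DMSO. The members themselves had a median of 41.6%. They were chosen for a low value and the other rows were not, so some distance between them follows from the rule. Over all 207 pairs of rows in a common RefSeq gene with at least 10 FPKM in DMSO each, the median absolute difference in log2 ratio was 0.24, and it exceeded 1 in 15 pairs. In 9 of these 15 pairs 1 row was a member.

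AMADH1A, a gene for an aminoaldehyde dehydrogenase, an enzyme class that oxidises aminoaldehydes from polyamine breakdown, is an example. The member GRMZM2G013214, on chromosome 4 from 79470089 to 79471591, had 5.25 FPKM after IAA and 15.6 in DMSO. The other row of AMADH1A, GRMZM2G146754, starts 133 bp beyond it and had 44.1 FPKM after IAA and 42.1 in DMSO. The paralogs AMADH1b (GRMZM2G016189) and AMADH2 (GRMZM2G135470) were at 67.8 and 20.8 FPKM after IAA and at 69.1 and 20.8 in DMSO. Of the 2 models of AMADH1A, 1 was lower after IAA and the other was not.

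In other pairs the row beside the member kept a larger part of its DMSO level, above or below 100%. GRMZM2G135111 had 4.27 FPKM after IAA and 17.9 in DMSO, whereas GRMZM2G062268 of the same RefSeq gene had 36.4 and 33.9. GRMZM2G090929 had 28.7 FPKM after IAA and 66.9 in DMSO, whereas GRMZM2G022090 had 42.3 and 42.2. GRMZM2G531230 had 9.78 FPKM after IAA and 27.3 in DMSO, whereas GRMZM2G082032 had 41.5 and 44.2. The lowest of the 12 other rows was GRMZM2G070912, which shares both gene and locus with the member GRMZM6G198866. The member and this row had 47.9 and 13.9 FPKM after IAA against 104 and 23.2 in DMSO. A further row, GRMZM2G165865 beside the member GRMZM2G008252, was under 1 FPKM in both treatments, with 0.0766 FPKM after IAA and 0.350 in DMSO.

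A further property concerned loci listed for more than 1 gene. In all, 14 members shared their locus with another row, and for them the printed span is that of the shared locus. The share at or under 0.5 times DMSO was 1.82% of 769 genes that share a locus and 0.844% of 10905 genes that do not. Of the 21 members of 2000 bp and over, 11 shared their locus. With these genes left out, 8 of 4906 genes at 2000 bp to under 5000 bp and 2 of 3690 at 5000 bp and over were members, or 0.163% and 0.0542%. Again none of the 14 other rows with at least 1 FPKM in DMSO was at or under 50%, and their median was 98.2%. At 0.908% of the 11674 genes with at least 10 FPKM in DMSO, the absence of such a row is no result about them. AC194298.3_FG005, the member with the lowest ratio above 0, shared its locus with GRMZM2G091540, which had 14.4 FPKM after IAA and 18.1 in DMSO. GRMZM2G054065 had 4.68 FPKM after IAA and 23.6 in DMSO, beside 16.9 and 17.8 for GRMZM2G054076. Reads of overlapping genes are divided by the counting software. The libraries were stranded and mapped with default settings, and the strand option of the counting is not named in the sources used here.

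**Figure D4:**
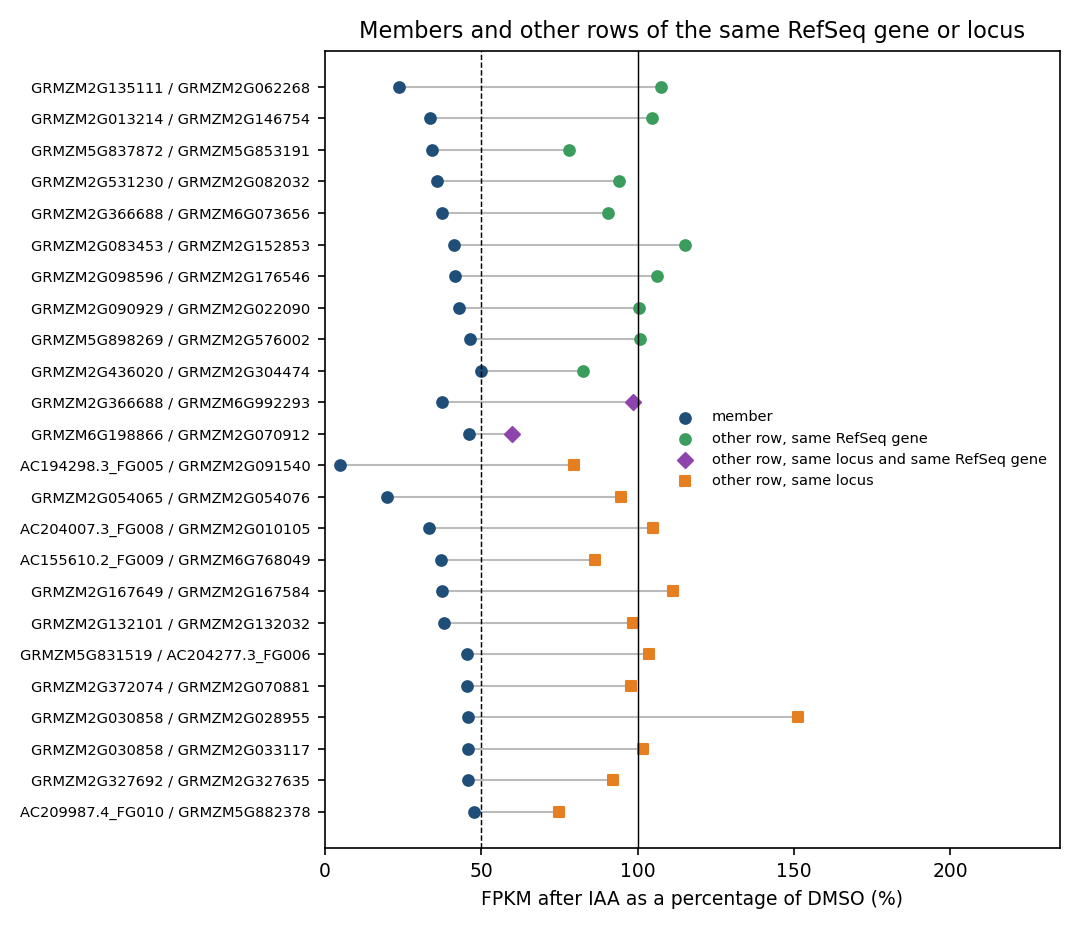
FPKM after IAA as a percentage of DMSO (horizontal) for members and for the other rows of the same RefSeq gene or the same locus with at least 1 FPKM in DMSO, 1 line per pair. The members lie left of the dashed line at 50%, and all other rows lie right of it, between 59.9% and 151%. With 0.908% of the 11674 genes with at least 10 FPKM in DMSO at or under 50%, this position of the other rows is no result about them.

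With short, unmatched and shared models set aside, 32 members were left: those of 600 bp or more that matched a RefSeq gene, overlapped no other row and were the only row of their gene. They were 0.386% of the 8295 genes with these properties, of which 22 were at 2-fold or more above DMSO. Both counts rest on a minimum in DMSO alone, so they are not directly comparable, and the mirror rule was not applied here. This set was made after the values had been seen. Its median kept 45.8% of DMSO, and its lowest ratio belonged to GRMZM2G450866, at 21.2%. GRMZM2G438202 on chromosome 10 was next, with 9.29 FPKM after IAA and 35.1 in DMSO. GRMZM2G089783 on chromosome 4 had 6.90 FPKM after IAA and 22.1 in DMSO, and GRMZM2G073934 had 86.3 and 264. The others kept more than 38% of their DMSO level. Short loci prevailed here too, with 84.4% under 2000 bp (27 of 32) against 17.5% of the 8295 genes (1451).

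Among these 32 was the alpha-expansin gene expa2 (GRMZM2G105844), on chromosome 5 from 206888609 to 206890560. Expansins are proteins that loosen cell walls during growth. The gene had 4.94 FPKM after IAA and 10.8 in DMSO. The other 8 expansin genes with at least 10 FPKM in DMSO kept 79.2% to 124% of that level, 5 of them below 100% and 3 above. Over all 11674 genes, 59.7% were below 100%. Expression of expa1 (GRMZM2G339122) was 23.9 FPKM after IAA and 29.6 in DMSO, and that of expB4 (GRMZM2G154178) was 44.8 and 36.1 FPKM.

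The only name held by more than 1 member was H3C4. The table gives this name to 7 genes, all with at least 10 FPKM in DMSO. Besides GRMZM2G130079, the member was GRMZM2G355773, on chromosome 10 from 116391903 to 116394321, with 5.48 FPKM after IAA and 13.0 in DMSO. The other 5 kept 55.6% to 72.4% of their DMSO level: GRMZM2G179005 had 198 FPKM after IAA and 273 in DMSO, GRMZM5G864735 had 181 and 256, GRMZM2G418258 had 134 and 241, GRMZM2G401581 had 53.2 and 85.1, and GRMZM2G376957 had 8.54 and 12.5. The name was taken up because 2 of its genes were members, so these counts are a description. The 14 genes named H4C14, for the core histone H4 that pairs with H3 in the nucleosome, had a median log2 ratio of 0.12. None was a member, which at 0.908% of all 11674 genes is no result about H4C14. Without scaling, 59.7% of all 11674 genes were below DMSO. Of the 14 H4C14 genes, 5 were below DMSO, or 3 with either scaling, that is, with equal column totals or with the median log2 ratio of the 11674 genes set to 0. GRMZM2G016232 had the lowest ratio among them, with 330 FPKM after IAA and 509 in DMSO. Histone genes are near-identical copies, among which reads may have been divided unequally.

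**Figure D5:**
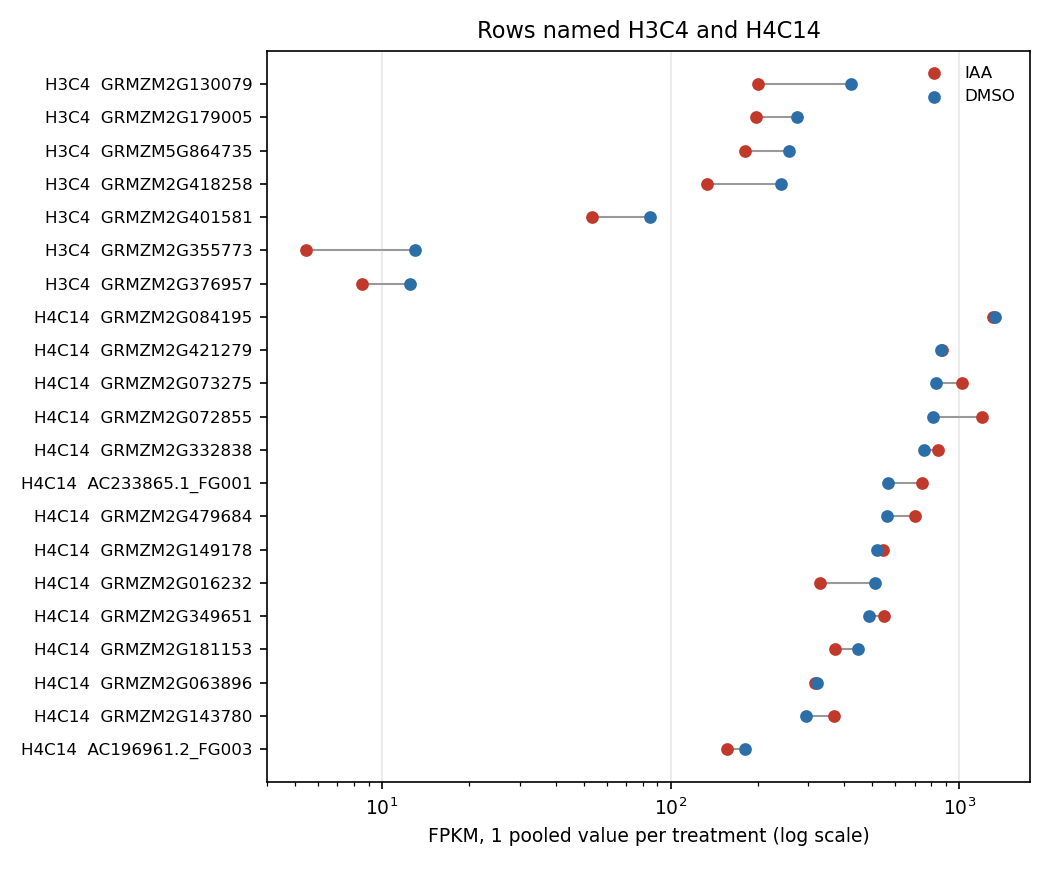
FPKM (horizontal, log axis) after IAA and in DMSO for the 7 genes named H3C4 and the 14 named H4C14, each line joining the pooled values of a gene. All 7 H3C4 genes lie lower after IAA, and 9 of the 14 H4C14 genes lie higher, while 5 lie lower (3 with either scaling).

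Besides H3C4, AMADH1A and expa2, no member carried a gene symbol. Of 34 name lists, 15 held at least 1 gene with 10 FPKM or more in DMSO, 105 genes in all, and none of these genes was a member, which at 0.908% overall is no result about the members. The heat shock list had a median log2 ratio of -0.31 over 8 genes, 7 of them below DMSO, or 6 with either scaling. Without scaling, 59.7% of all 11674 genes were below DMSO. The TIFY list, which holds jasmonate signalling repressors, had 0.05 over 19 genes. The lists were written for gene descriptions but could be matched to symbols only. They therefore missed genes that do carry a symbol, among them the H3C4 and expansin genes described above, and a list without a member says little about its family.

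The members lay on all 10 chromosomes. Their share was highest on chromosome 3, with 17 of 1250 genes (1.36%), and on chromosome 2, with 17 of 1332 (1.28%). It was lowest on chromosome 8, with 7 of 1110 (0.631%), on chromosome 10, with 5 of 737 (0.678%), and on chromosome 1, with 13 of 1893 (0.687%). The other 5 chromosomes lay between 0.799% and 0.971%. The median gap between neighbouring members was 9.71 Mb. Only GRMZM2G009968 and GRMZM5G831519 on chromosome 8 were next to each other among genes with at least 10 FPKM in DMSO. They had 8.17 and 42.5 FPKM after IAA against 18.5 and 93.7 in DMSO. Their printed loci lay 203497 bp apart. GRMZM5G831519 shares its locus of 124411 bp with AC204277.3_FG006, so the distance between the genes themselves is not known. The closest pair, AC195331.3_FG008 and GRMZM2G090929 on chromosome 3, lay 9597 bp apart, and between them was GRMZM2G022090, the row described above with 42.3 FPKM after IAA and 42.2 in DMSO. The median distance to the nearest other row was 4381 bp for the members and 4435 bp for all 11674 genes. For the 21 members under 600 bp it was 2616 bp, against 4322 bp for all 213 genes of that length, and 4 of the 21 and 41 of the 213 had a row within 1000 bp (19.0% and 19.2%).

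At the limits of the rule, the values ran on without a break. GRMZM2G476477, GRMZM2G430871 and GRMZM2G436020 were just inside, at 49.93%, 49.90% and 49.89% of DMSO, and GRMZM2G045921, GRMZM2G043279 and GRMZM2G051311 were just outside, at 50.03%, 50.06% and 50.13%. GRMZM2G043279, on chromosome 5, was the most abundant of these, with 247 FPKM after IAA and 493 in DMSO. At the DMSO limit, GRMZM2G425728 had 4.12 FPKM after IAA and 10.02 in DMSO and was a member, as were GRMZM5G872578 (4.84 and 10.04) and GRMZM2G132101 (3.91 and 10.25). GRMZM5G895534 had 4.56 FPKM after IAA and 9.77 in DMSO and was not, and neither were GRMZM2G087809 (4.12 and 9.77) and GRMZM2G073324 (4.33 and 9.68).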

How the data were processed

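RNA-seq reads of 6 libraries were trimmed with trimmomatic, mapped to B73v3 with TopHat2 2.1.1 and compared with Cuffdiff 2.2.1 by the authors, who deposited 1 FPKM value per gene and treatment over 3 replicates. These FPKM values were used as deposited. The log2 fold changes, test statistics, p-values, q-values and status of the authors' own comparison were not used. Whether the smallest values fall on steps that whole reads would leave was not settled, since locus length counts introns. Depth is therefore unknown and no interval is given. The libraries were stranded and mapped with TopHat's defaults; the annotation and strand option used for counting are not named in the sources used here. Ratios are IAA over DMSO without a pseudocount. Locus starts were raised by 1, since 632 of 18475 RefSeq lengths then equalled the locus length, against 67 otherwise. Names came from the table and, by identifier, from RefSeq (Zm-B73-REFERENCE-NAM-5.0, used for names and shared gene records only), which held 18995 of 39283 identifiers. Of 39283 rows, 154 microRNA precursor rows were left out. Members and lists were chosen with earlier results of these data known. Because symbols had to stand in for descriptions, 19 of 34 name lists held no gene with at least 10 FPKM in DMSO. The H3C4, H4C14, expansin and AMADH groups were added after values were seen. Genes named were the 12 highest in DMSO, the 12 lowest ratios, the 10 most abundant under 600 bp, the 3 on each side of each limit, and list members; further genes illustrate counts and were chosen after their values were seen. The planned motif search in promoters was not run, and no sequence was used here. The code of the member rule was checked on simulated data with planted ratios, which says nothing about the spread between replicates. Calculations ran in Python 3.11.15 with pandas 2.3.3 and numpy 2.4.6; plots were drawn with matplotlib 3.10.9.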

Additional observations from a re-analysis of the deposited data

How the results depend on the processing

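The group numbered 106. With a DMSO minimum of 20 FPKM it numbered 63, of which 13 were under 600 bp and 33 in RefSeq, against 21 and 51 before. With a ratio limit of 0.4 it numbered 39, with 11 under 600 bp, 14 clone models (24 before) and 14 in RefSeq. With a DMSO minimum of 5 FPKM it numbered 155, with 37 under 600 bp. With rows that share a RefSeq gene or locus left out, a setting chosen after seeing the data, 82 were left, of which 32 were in RefSeq. These counts differ by construction, since each setting narrows or widens the rule. The other alternatives left 81 to 114 members: the minimum set on the mean of both values (81), equal column totals (85), loci under 600 bp left out (85), a pseudocount of 1 FPKM (87), the median set to 0 (87), overlapping loci left out (92), and microRNA precursors kept (114). Without clone models, also chosen after seeing the data, 82 were left. With equal totals 84 of the 105 members with a value above 0 after IAA stayed at or under a log2 ratio of -1; this scaling shifts every gene alike by 0.06. No paired analysis was possible because replicate values were not at hand, only a pooled FPKM for each gene after IAA and in DMSO. Fits to replicate values and the removal of single replicates were therefore not run.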

Other observations

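Genes just under the abundance limit, at 5 to 10 FPKM in DMSO, were not part of the group. Of 4382 such genes, 49 (1.12%) were at or under 0.5 times DMSO after IAA. By locus length these were 18.0% of 89 genes under 600 bp, 5.19% of 231 at 600 bp to under 1000 bp, 2.45% of 694 at 1000 bp to under 2000 bp, 0.114% of 1747 at 2000 bp to under 5000 bp and 0.123% of 1621 at 5000 bp and over. Of the clone models in this range, 3.42% of 146 were at or under 0.5 times DMSO, against 1.04% of 4236 other genes. The H3C2 genes, named for histone H3 like H3C4, numbered 3, of which GRMZM2G401581 carries both names. GRMZM2G447984 had 71.5 FPKM after IAA and 105 in DMSO, and GRMZM2G475899 had 36.7 and 62.6.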
